A study of Mus musculus with 8 samples.

Results

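ESCRT-I is a protein complex of the endosome, and the transcripts of its subunits were followed here in mouse Th17 cells that carried either of 2 forms of the transcription factor ROR-γt. The genes were chosen by their symbols as subunits of the complex, namely Tsg101, Vps28, Vps37a, Vps37b, Vps37c, Vps37d, Mvb12a, Mvb12b and Ubap1. The complex was taken up because of Vps37b, which was selected on its difference between the groups, so that difference is given as a description with no test. Of the 9 genes, 8 were analysed among 22829 genes in the table, 7 of them with a mean normalized count of at least 10 and 1, Vps37d, as low only. Vps28, which encodes a core subunit, had no entry under this symbol among the 22829 genes and so was not analysed here.

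ESCRT complexes act one after another on the endosome. They gather membrane proteins that carry ubiquitin, bud them into the lumen of multivesicular bodies, and so send them to the lysosome, which is how T cells dispose of internalized receptors such as the T cell receptor. ESCRT-I passes cargo from ESCRT-0 towards ESCRT-II and ESCRT-III, and it also takes part in the last step of cell division and in the budding of enveloped viruses. A complex holds Tsg101, Vps28, a Vps37 protein and either an Mvb12 protein or Ubap1, so the Vps37 genes are alternatives to each other, as are Mvb12a, Mvb12b and Ubap1.

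RNA seq measured 4 samples of Th17 cells with WT-ROR-γt and 4 with the K187R-ROR-γt mutant, in which the lysine that receives SUMO is replaced. All cells came from ROR-γt-/- mice, and the groups differed in the form of ROR-γt, which per the study's methods a lentivirus carried into splenic CD4+ T cells that were then driven towards Th17. The labels number the replicates 1 to 4 without saying whether they are separate animals or cultures, so p-values measure only the spread between these samples, which may be technical. The sources used here do not give the age of the animals.

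Reads counted per sample ranged from 52456804 to 74676721, and 3 reads corresponded to 2.54 to 3.56 normalized counts (reads divided by 1 size factor per sample). All 7 CD4 T cell markers and all 8 Th17 markers examined were above the low limit, and the former summed to 153863 to 175379 normalized counts in WT and 164486 to 185095 in K187R. The summed Th17 markers ran from 74758 to 91498 in WT and from 91716 to 99491 in K187R, narrowly without overlap. Maf, at 40100 to 50242 over the samples, was the largest part of this sum, and its groups overlapped. Of the single Th17 markers only Il1r1 was apart, and Rora had a lower mean in K187R (11586 against 12184). Over all genes tested, 417 of 16982 separated the groups in either direction, so nothing is read from this. Markers of myeloid cells were also present (8 of 8 above the limit, with Lyz2 the most abundant), with a sum of 20847 to 61172 in WT and 35553 to 64527 in K187R. B cell markers (5 of 5) summed to 286 to 1127 and 356 to 1353, CD8 T cell markers (2 of 2) to 403 to 1025 and 387 to 1141, and NK markers (3 of 4, with Ncr1 between 0 and 9.48) to 233 to 842 and 192 to 798. The part of these cells in the results was not tested. In such bulk samples, fewer cells of a type cannot be told apart from less RNA per cell. Clustering without the ESCRT genes was cut into 3 sets of samples, a number that was fixed and not found by the clustering. Each set holds both groups, and the sets are defined from the data and not by the labels. They were WT replicates 1 and 3 with K187R replicate 1 (set 1), WT replicate 2 with K187R replicates 2 and 3 (set 2), and both samples numbered 4 (set 3).

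Vps37b was lower in all 4 K187R samples than in any WT sample. The Vps37b protein joins the others in the coiled stalk of the complex. The gene lies on the minus strand of chromosome 5 of GRCm38, from 124004641 to 124032270 (ENSMUSG00000066278). Its normalized count was 7347, 6876, 8303 and 6905 in WT replicates 1 to 4 and 4583, 4847, 5411 and 5446 in K187R replicates 1 to 4. The highest K187R sample was thus below the lowest WT sample. The means were 7358 ± 666 in WT and 5072 ± 426 in K187R (SD, n = 4 each), so that the K187R mean was 68.9% of the WT mean. The difference, K187R minus WT, was -0.54 on the scale of log2(normalized count + 1), with a standard error of 0.089 from limma. Between 4057 and 9818 reads lay behind each value, for which counting alone gives a relative error of 1.01% to 1.57%. Within the sets of samples the log2 difference was -0.77, -0.42 and -0.34 in the order of the sets. The groups were apart in each, which their separation over all samples makes certain, and set 3 holds only 1 sample per group. Over all 16982 genes tested, 0.989% were separated completely with K187R lower. Among the ESCRT-I genes this held for 1 of 7, Vps37b itself, and nothing is read from that since the gene was selected on it.

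**Figure D1:**
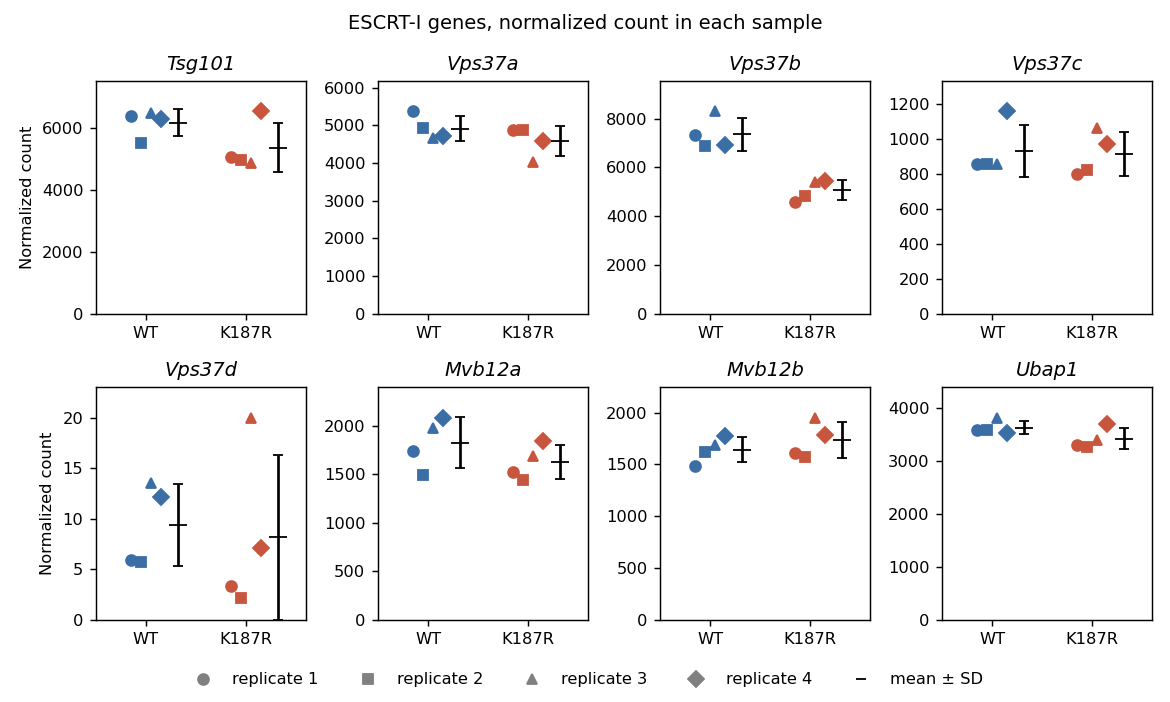
Normalized count (reads divided by the size factor of the sample, linear axis from 0 in each panel) of the 8 ESCRT-I genes in every WT sample (blue) and K187R sample (red). Symbols mark the replicate number and black bars the mean ± SD of 4 samples. The groups are apart for Vps37b alone, with the highest K187R sample at 5446 and the lowest WT sample at 6876.

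The exons of Vps37b overlap other genes more than those of any other ESCRT-I gene analysed. On the opposite strand, Hip1r shares 918 exonic bases with it, 32.9% of its exonic length of 2789 bases, and the gene model Gm37939 shares 447 (16.0%). The sources used here do not say whether strand was used in counting, or whether reads in shared bases were counted or left out. Without strand, reads in the shared bases cannot be told apart. The level and share of Vps37b per kilobase are therefore uncertain. Hip1r had 3877, 4170, 4472 and 7679 normalized counts in WT and 3744, 3819, 4318 and 5915 in K187R, in order of replicate. Its groups overlapped, with a log2 difference of -0.15 (standard error 0.22, adjusted p = 0.935 from limma). In K187R the 4 samples stood in the same order for Hip1r and Vps37b, and in WT they did not. The part of Hip1r reads in the Vps37b values was not tested. Gm37939 stayed between 1.08 and 6.10 normalized counts, near the floor of 3 reads. Of all stretches of 75 bases in the Vps37b transcripts, 38.2% also occur, on either strand, in transcripts of Hip1r or Gm37939, and 0 in those of other ESCRT-I genes.

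The alternatives to Vps37b within the complex did not pass the test. Vps37a, which is needed for the breakdown of growth factor receptors, lies on chromosome 8 (40511783 to 40551134). It had 5371, 4924, 4651 and 4710 normalized counts in WT and 4875, 4879, 4022 and 4576 in K187R. The groups overlapped, with means of 4914 ± 326 and 4588 ± 403 (SD, n = 4 each) and a log2 difference of -0.10 (standard error 0.085, limma giving an adjusted p of 0.921 and the exact permutation test, two-sided, p = 0.314).

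Vps37c lies on chromosome 19 (10688735 to 10714627). It had 859, 858, 858 and 1160 normalized counts in WT and 799, 825, 1065 and 974 in K187R. In WT, replicate 4 stood above the other replicates, which were nearly equal, and the groups overlapped. The means were 934 ± 151 and 916 ± 126 (SD, n = 4 each), and the log2 difference was -0.025 (standard error 0.138, limma giving an adjusted p of 0.985 and the exact permutation test, two-sided, p = 0.914). Without WT replicate 4 it was 0.084, the opposite direction.

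Vps37d, on chromosome 5 (135072900 to 135078266), was low, with 2 to 19 reads per sample. Its normalized count ran from 5.77 to 13.5 in WT, and K187R held both the lowest sample (replicate 2, 2.17, from 2 reads) and the highest (replicate 3, from 19 reads). The values reach down to the floor of 3 reads, so no difference could be resolved at this depth.

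Set against each other per kilobase of annotated exon, Vps37b made up most of the Vps37 transcripts in both groups. Its share of the summed Vps37 level was 69.4%, 69.3%, 73.8% and 67.8% in WT and 60.8%, 61.9%, 65.2% and 64.3% in K187R. The mean share was 70.1% ± 2.61 in WT and 63.0% ± 2.07 in K187R (SD, n = 4 each), and the groups did not overlap, as follows from the values by which Vps37b was chosen. Reads not divided by length gave Vps37b a mean share of 55.6% in WT and 47.9% in K187R, and there Vps37a was ahead of it in K187R replicates 1 and 2. Vps37a held 20.5% ± 1.84 and 25.1% ± 3.26, Vps37c 9.21% ± 1.74 and 11.7% ± 1.10, and Vps37d 0.050% to 0.435% over the samples. The summed level of the 4 genes, in RPKM (reads per kilobase of exon, scaled to the depth of the sample), was 58.1 to 63.8 in WT and 44.1 to 50.3 in K187R. Relative to Tsg101 it was 1.67 ± 0.079 in WT and 1.49 ± 0.168 in K187R (SD, n = 4 each), and here the groups overlapped. These shares carry no p-value, since they are built from the chosen genes.

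**Figure D2:**
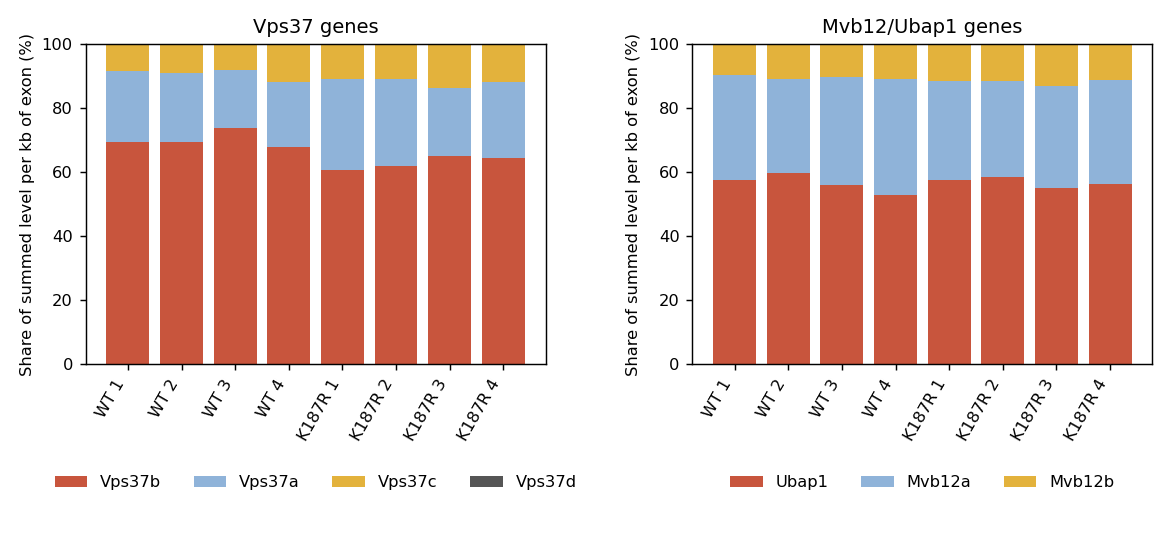
Share of each Vps37 gene (left) and of each Mvb12 or Ubap1 gene (right) in the summed level per kilobase of exon, in percent, as stacked bars for each of the 8 samples. Vps37b is the largest Vps37 segment throughout, between 67.8% and 73.8% in WT and between 60.8% and 65.2% in K187R, and Vps37d is too small to be seen.

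Tsg101 encodes the subunit that binds ubiquitin and the P(T/S)AP motifs of partner proteins. It lies on chromosome 7 (46888949 to 46919969, minus strand). Its normalized count was 6395, 5515, 6495 and 6292 in WT and 5050, 4959, 4875 and 6534 in K187R. K187R replicates 1 to 3 were below every WT sample, and K187R replicate 4 was above every WT sample. The means were 6174 ± 448 and 5354 ± 790 (SD, n = 4 each), a log2 difference of -0.21 (standard error 0.106, limma giving an adjusted p of 0.921 and the exact permutation test, two-sided, p = 0.143). Without K187R replicate 4 the log2 difference was -0.31 (adjusted p = 0.677 from limma). By set it was -0.35, -0.17 and 0.054. Of the stretches of 75 bases in its transcripts, 13.1% also occur in the pseudogene Tsg101-ps, which was listed at 13.7 to 38.1 normalized counts, so the split of reads between the pair is uncertain.

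The Mvb12 proteins and Ubap1 close the complex at its far end, and Ubap1 directs it to the sorting of ubiquitin-bearing cargo at the endosome. None of the 3 genes passed the test. Mvb12a, on chromosome 8 (71542922 to 71548085), had 1747, 1498, 1979 and 2088 normalized counts in WT and 1530, 1446, 1693 and 1847 in K187R. The groups overlapped, with means of 1828 ± 262 and 1629 ± 178 (SD, n = 4 each) and a log2 difference of -0.16 (standard error 0.123, limma giving an adjusted p of 0.921 and the exact permutation test, two-sided, p = 0.257).

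Mvb12b, on chromosome 2 (33729953 to 33887946, minus strand), had 1485, 1619, 1687 and 1772 normalized counts in WT and 1613, 1575, 1953 and 1786 in K187R. It was the only ESCRT-I gene of the 7 whose mean was higher in K187R, at 1641 ± 121 against 1732 ± 174 (SD, n = 4 each). This log2 difference of 0.075 was within the spread of the replicates (standard error 0.096, limma giving an adjusted p of 0.928 and the exact permutation test, two-sided, p = 0.429).

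Ubap1, on chromosome 4 (41348996 to 41390525), had 3586, 3582, 3816 and 3525 normalized counts in WT and 3303, 3263, 3401 and 3699 in K187R. K187R replicates 1 to 3 lay below every WT sample, while K187R replicate 4 lay within the WT range. The means were 3627 ± 129 and 3417 ± 197 (SD, n = 4 each), with a log2 difference of -0.087 (standard error 0.068, limma giving an adjusted p of 0.921 and the exact permutation test, two-sided, p = 0.114). The smallest p that 4 samples against 4 allow in this permutation test is 0.0286, and it was run for 6 genes.

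Per kilobase of exon, Ubap1 made up 56.5% ± 2.96 of the summed Mvb12a, Mvb12b and Ubap1 level in WT and 56.8% ± 1.43 in K187R (SD, n = 4 each). Mvb12a held 33.0% ± 3.02 and 31.4% ± 1.11. Mvb12b held 10.5% ± 0.609 and 11.8% ± 0.811, and its share was above every WT sample in every K187R sample. With the longest annotated transcript as the length, the Mvb12b shares overlapped, and Mvb12a (46.4% in WT) came out ahead of Ubap1 (40.8%). The order of these genes therefore depends on the length used.

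Ordered by their WT level in RPKM over annotated exons, the genes ran from Vps37b (42.9 ± 2.95) over Tsg101 (36.8 ± 2.62), Ubap1 (16.5 ± 0.354), Vps37a (12.5 ± 0.803), Mvb12a (9.68 ± 1.51), Vps37c (5.63 ± 1.08) and Mvb12b (3.06 ± 0.289) to Vps37d (0.099 ± 0.043), each SD over n = 4. In WT each gene lay above the next in every sample. In K187R, Tsg101 (32.3 ± 4.97) was ahead of Vps37b (29.9 ± 2.66), but their samples overlapped, with 29.3 to 39.7 for Tsg101 and 26.8 to 32.4 for Vps37b. With the longest transcript as the length, Tsg101 (51.6) was ahead of Vps37b (47.4) in WT as well.

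The limma fit called 0% of all genes (0 of 16982) at an adjusted p-value under 0.05, while 746 were below that level before adjustment. Among the 6 ESCRT-I genes beside Vps37b, 0 passed and 0 had an unadjusted p-value under 0.05. Their median log2 difference was -0.094, with 5 of 6 lower in K187R, against a median of -0.0062 over all genes, of which 51.6% were lower. DESeq2 on the recovered reads called 14 genes lower in K187R, 0.102% of the 13682 with an adjusted p-value. Vps37b was among them, from which nothing is read, and the other 6 were not.

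The rest of the ESCRT pathway was examined as lists that held 33 genes in all, of which 32 had a mean of at least 10. Of these, 0 passed in either direction, 0 had an unadjusted p-value under 0.05, and 0 separated the groups. Over all genes tested, 417 of 16982 separated the groups in either direction, so nothing is read from 0 of 32. The median log2 difference of the 32 genes was -0.055, with 22 lower and 10 higher in K187R and single values between -0.19 and 0.28.

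In ESCRT-0, which binds ubiquitin-bearing cargo at the start of the pathway, all 3 genes had a lower mean in K187R without passing. Stam had the largest difference at -0.18 (2171 ± 238 against 1907 ± 161 normalized counts, SD, n = 4 each, adjusted p = 0.921 from limma). Hgs, at 16.8 to 23.4 RPKM, had the highest level. Another annotated gene of the same name covers 97.2% of the exonic bases of Hgs, so its count is uncertain. In ESCRT-II, which links ESCRT-I to ESCRT-III, 2 of 3 genes were lower. Snf8 (15.3 to 18.7 RPKM) and Vps36 (15.2 to 18.3 RPKM) had levels that overlapped over nearly their whole range. Vps25 had the largest difference there (0.22, standard error 0.222) at 42.8 to 74.7 normalized counts, and Ramp2 overlaps 67.2% of its exonic bases.

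ESCRT-III forms the filaments that pinch off the vesicle. Of its 10 genes tested, 7 were lower and 3 higher, with a median of -0.052. Chmp4b, the main filament subunit, had the highest level of all ESCRT genes examined (132 to 156 RPKM) and a log2 difference of 0.0021. Chmp5 had the largest, at -0.15 (4454 ± 431 against 4014 ± 378, SD, n = 4 each, adjusted p = 0.921 from limma). Chmp4c was low, at 1.19 to 21.2 normalized counts.

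The VPS4 ATPases take the filaments apart. All 3 genes of this list were lower. Vps4a differed by -0.083, the activator Vta1 by -0.12, and Vps4b by only -0.0096 (standard error 0.088). Vps4a had the highest level over union exons (median 25.7 RPKM, against 17.6 for Vps4b), but with the longest transcript as the length Vps4b (33.9) was ahead of Vps4a (29.7). Among the Bro1 proteins and deubiquitinases, which offer a bypass from ESCRT-I to ESCRT-III and strip ubiquitin from cargo, all 4 means were lower. Ptpn23 differed most, by -0.16, and Pdcd6ip (Alix) had the highest level. Of the adaptors that recruit ESCRT-I, 5 of 7 were higher. Arrdc1, at 16.9 to 31.8 RPKM, had the highest level and a difference of 0.067, and Tom1l1, at 10.1 to 42.3 normalized counts, the largest (0.28, standard error 0.494). Of the paralogs of ESCRT-I subunits, Uevld, which resembles Tsg101, differed by -0.058 and had the higher level. Ubap1l differed by 0.18 at 7.69 to 19.2 normalized counts.

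**Figure D3:**
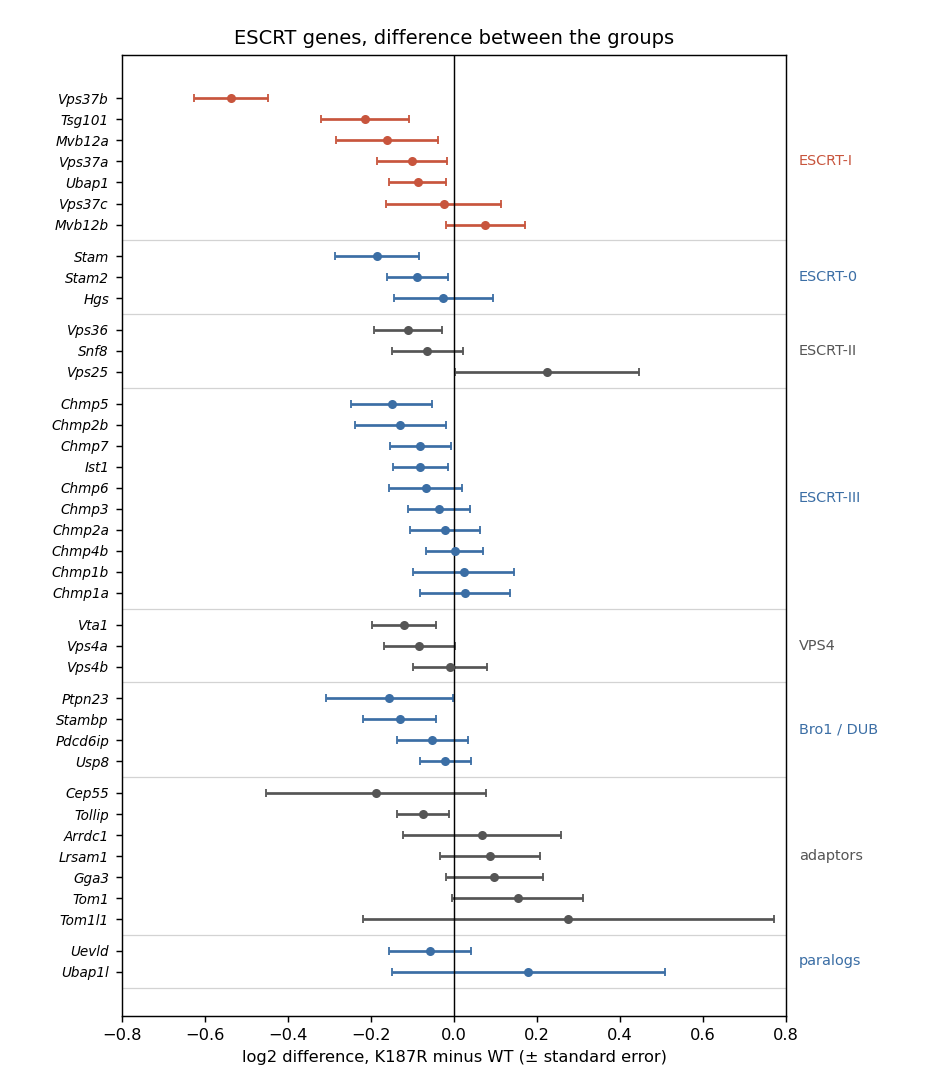
Log2 difference between the groups, K187R minus WT on the scale of log2(normalized count + 1), for 7 ESCRT-I genes (red) and 32 other ESCRT genes grouped by complex, with bars for ± 1 standard error from limma over 8 samples. Vps37b lies at -0.54, and the other genes lie between -0.21 and 0.28.

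The genes whose pattern was most like that of Vps37b were sought among 13366 others with a mean of at least 50. Likeness was the mean absolute difference between centred log2 values over the 8 samples. Abcg1, a sterol exporter, was the closest at 0.037, where the median over all genes was 0.286 and the mean deviation of Vps37b from its own mean was 0.268. It had 5765, 5264, 6140 and 5288 normalized counts in WT and 3318, 3653, 4210 and 3946 in K187R, so that replicate 3 was the highest of each group and the groups were apart.

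Sema4c, a semaphorin (0.079), Dgat1, which makes triglycerides (0.089), Nr4a2, a nuclear receptor induced by activation (0.093), and Fosl2, an AP-1 subunit (0.097), came next. For Dgat1, Nr4a2 and Fosl2 the groups did not overlap, and for Sema4c they did. Since centring on all samples keeps the difference between the groups, this likeness shares the values by which Vps37b was selected and gets no test.

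When each group was centred on its own mean, so that only the spread among replicates counted, Ppp1r15a was the closest at 0.016, against a median of 0.157 over all genes and a mean deviation of Vps37b from its own group means of 0.096. Ppp1r15a is a subunit of a phosphatase that restores translation after stress. It had 2384, 2194, 2576 and 2229 normalized counts in WT and 1836, 1921, 2129 and 2124 in K187R. Creld2 (0.029), Tspan31 (0.029), Mid1ip1 (0.030) and the pseudogene Got2-ps1 (0.030) followed. By this measure the closest ESCRT-I gene was Ubap1 (0.057, rank 182 of 13366), and the other 5 lay between 0.101 and 0.161, above the deviation of Vps37b itself. By the former measure the closest of them was Tsg101 (0.177, rank 280 of 13366).

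**Figure D4:**
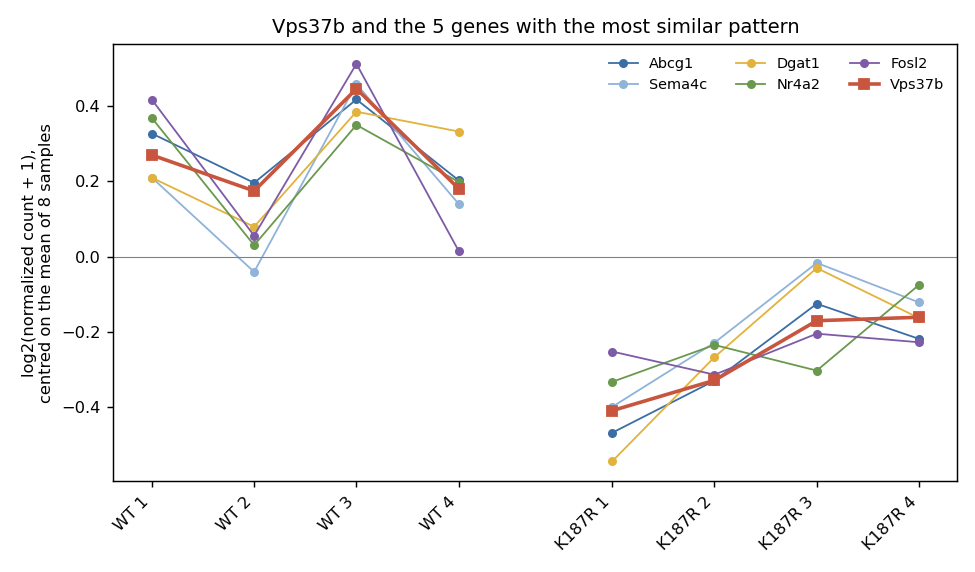
Log2(normalized count + 1), centred on the mean of the 8 samples, for Vps37b (red squares) and the 5 genes with the most similar pattern, by sample. All 6 genes are higher in WT on average, and Abcg1 follows Vps37b with a mean absolute difference of 0.037.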

How the data were processed

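The authors trimmed reads with Cutadapt, aligned them to GRCm38 with HISAT2, counted reads by featureCounts over GENCODE M15 genes and used DESeq2; versions are not given in the sources used here. The library kit is named differently in the labels (TruSeq) and in the paper (KAPA mRNA HyperPrep). The deposited signal per gene is reads divided by 1 size factor per sample. Reads were recovered from it with a largest deviation of 0.000487 of a read. As the deposited values are normalized, limma on log2(normalized count + 1) was set as the main test. DESeq2 and edgeR on the recovered reads were alternatives. The limma test covered 16982 genes with a mean of at least 10, with Benjamini-Hochberg adjustment and a threshold of 0.05. The summed levels per length used union exons of GENCODE M21 (22784 identifiers found, 45 not). Named genes were all ESCRT-I genes analysed, the gene with the highest level (median over samples, union exons) and the most different gene of each other list, and the 5 genes most like Vps37b by each of 2 measures. Chmp4c, as the low gene of its list, and Vps36 and Vps4b, as close in level to the highest, were named after their values were seen. Members, lists and tests were chosen with earlier results of these data known. Other settings tried were a pseudocount of 0.5 or 5, a minimum mean of 50 or none, library totals, quantile normalization, median centring, no trend, sample weights, replicate block, sample set, each sample left out, edgeR and DESeq2. Scripts were tested on simulated data. Some items are not reported here. Intervals of counting error cover counting only. Software was limma 3.58.1, DESeq2 1.42.0 and edgeR 4.0.16 under R 4.3.3, with scipy 1.17.1 for exact tests.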

Additional observations from a re-analysis of the deposited data

Results flagged for a closer look

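Each group of 4 samples was searched for a sample far from the others by Dixon's test, in 30 groups of values of the ESCRT-I genes and of their shares. Chance marks about 1 in 20 such groups, or 1.5 of 30, and 2 were marked.

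WT replicate 4 had 1160 normalized counts of Vps37c, against 858 to 859 in the other WT samples. K187R replicate 4 had 6534 normalized counts of Tsg101, against 4875 to 5050 in the other K187R samples. Both samples belong to set 3, in which the summed B cell markers were the lowest of each group (286 and 356). The summed CD8 T cell markers were the highest of each group there (1025 and 1141). The myeloid markers were mixed there. Lyz2 (54522 and 57778), Itgam and Fcer1g were the highest of each group, and Adgre1 was so in WT alone. Csf1r, Cd14, C1qa and C1qb were the highest of neither group, with Cd14 lowest in WT (448) and Csf1r lowest in K187R (2423). The part of these markers in the 2 values was not tested.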

How the results depend on the processing

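The difference in Vps37b kept its direction under all 21 alternatives, from -0.59 to -0.48, and moved by less than the spread between replicates in each. Nothing is read from the direction. The gene was selected on this difference, and with groups that do not overlap, leaving out 1 sample could not reverse it. For any gene, the settings of no trend, another minimum mean and the replicate block leave the estimate unchanged. Vps37a, Tsg101, Mvb12a, Mvb12b and Ubap1 also kept their direction under all 21. Of the 6 genes beside Vps37b, 0 passed under any alternative, the smallest adjusted p-value being 0.214 (Tsg101, limma with sample weights). Vps37c reversed with sample weights (0.040) and with 1 sample left out (-0.10 to 0.084). The cause was not tested. Of the other ESCRT genes, 0 passed under any alternative. Over all genes the number called, 0 in limma, was 31 in DESeq2, 3 with sample weights, 1 with the sample set and 0 to 4 with 1 sample left out, the 4 being without WT replicate 4. In edgeR it was 0, and 729 genes were below 0.05 before adjustment.

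In the limma fit with a replicate block the difference in Vps37b was -0.54 and that in Tsg101 -0.21, and 0 genes passed. Before adjustment 2046 of 16982 genes had a p-value under 0.05 in this fit. Tsg101, Mvb12a and 1 of the 32 other ESCRT genes were among them, and nothing is read from that. Deviations of same-numbered samples correlated across genes at 0.59, 0.66, -0.092 and 0.63 for numbers 1 to 4, so the numbers do not pair the samples throughout.

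With reads not divided by length, the share of Vps37b was 55.6% in WT and 47.9% in K187R, and that of Vps37a 37.2% and 43.4%. Depth limits Vps37d alone among the ESCRT-I genes analysed.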

Other observations

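Promoter windows from RefSeq (GRCm38.p6) were matched for 6 of the ESCRT-I genes, Tsg101, Ubap1, Mvb12a, Mvb12b, Vps37c and Vps37d, with 7 windows. Vps37a and Vps37b had no window and were not searched. The half-site AGGTCA, which ROR proteins recognize, was searched on both strands. It was in 0 of the 7 windows, while 16.3% of all 32851 windows of this length held it. The longer TAGGTCA, which contains it, was also in 0 of 7, against 2.61% of all windows. No match says only that these letters are not in these windows.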
